A study of Danio rerio with 20 samples.

Results

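The genes described here are the 320 zebrafish genes that lay within 2 Mb of a chromosome end among the 2885 genes that the authors listed as different between old and young wild type (WT) brains. They were taken from this list by position alone. Every distinct gene identifier at most 2000000 bp from the nearer end of its chromosome in the authors' table was included. Neither level nor direction entered this step, but the authors' call at an adjusted p under 0.05, which made the list, can depend on level. The study sequenced poly(A) RNA of whole brains of male fish in 20 libraries of 7 groups, WT at 2, 9, 22 and over 30 months and tert- at 2, 9 and 22 months. WT and tert-/- fish were siblings from crosses of tert+/- parents of the AB background, and tert encodes the catalytic subunit of telomerase. The table compares WT over 30 months (3 libraries in the labels) with WT at 2 months (2 libraries), the libraries that entered it are not named, and none of the tert- groups is part of it. The paper, in contrast, states 3 per group and gives the ages as ranges of months. Its methods compare WT at 9, 22 and over 30 months with 2 months. Whether the libraries at 9 and 22 months entered the mean normalized counts given below is not stated.

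With each round of replication some telomere DNA is lost, which telomerase can restore and which the CST complex helps to limit by filling in the complementary strand. In budding yeast and in human cells, genes placed close to a telomere can be silenced, and the silencing depends on telomere length. In many species the stretch of a chromosome next to its telomere also tends to hold repeats and duplicated gene families.

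The table gives for each gene a mean normalized count, which is the authors' mean over the libraries of their fit, and no value per library, so that no spread between fish can be given. Genes are called listed as higher or listed as lower below, from the sheet of genes higher or lower in old fish in which the authors placed them; these placements are the authors' calls at an adjusted p under 0.05 and were not tested again. A gene that is missing from the table was either not called or not tested, and these cases cannot be told apart. Neighbours and runs of genes below are taken among listed genes only, and other genes can lie between them. The mean normalized count grows with the length of a transcript as well as with its abundance, so that an order of these counts is not an order of expression per length. In bulk tissue, fewer cells of a type and less RNA per cell cannot be told apart. Of 18 markers of brain cell types, 12 were listed, among them snap25a of neurons at a mean normalized count of 37420, mbpa of myelinating oligodendrocytes at 78061 and gfap of radial glia at 1031, and none of the 12 lay within 2 Mb of an end.

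Chromosome ends held more listed genes for their length than the rest of the chromosomes. The 2 Mb at each of the 50 ends of the 25 chromosomes make up 7.43% of the chromosome length and held 11.1% of the listed genes, or 3.2 listed genes per Mb against 2.06 further in. The density was highest right at the ends, with 77 listed genes within 0.25 Mb (6.16 per Mb), 44 from 0.25 to 0.5 Mb (3.52 per Mb) and 78 from 0.5 to 1 Mb (3.12 per Mb), and it was 2.32 per Mb from 1 to 1.5 Mb and 2.52 per Mb from 1.5 to 2 Mb. From 2 to 5 Mb it was 1.89 per Mb, from 5 to 10 Mb 2.09 per Mb and beyond 10 Mb 2.08 per Mb. How many genes are annotated in each stretch was not analysed here, so that these densities do not say whether a gene near an end was more often called than a gene elsewhere. The low-coordinate ends held 157 of the genes and the high-coordinate ends 163, with a median of 5.5 per end, a highest number of 19 at the low end of chromosome 22 and none at the low end of chromosome 23.

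**Figure D1:**
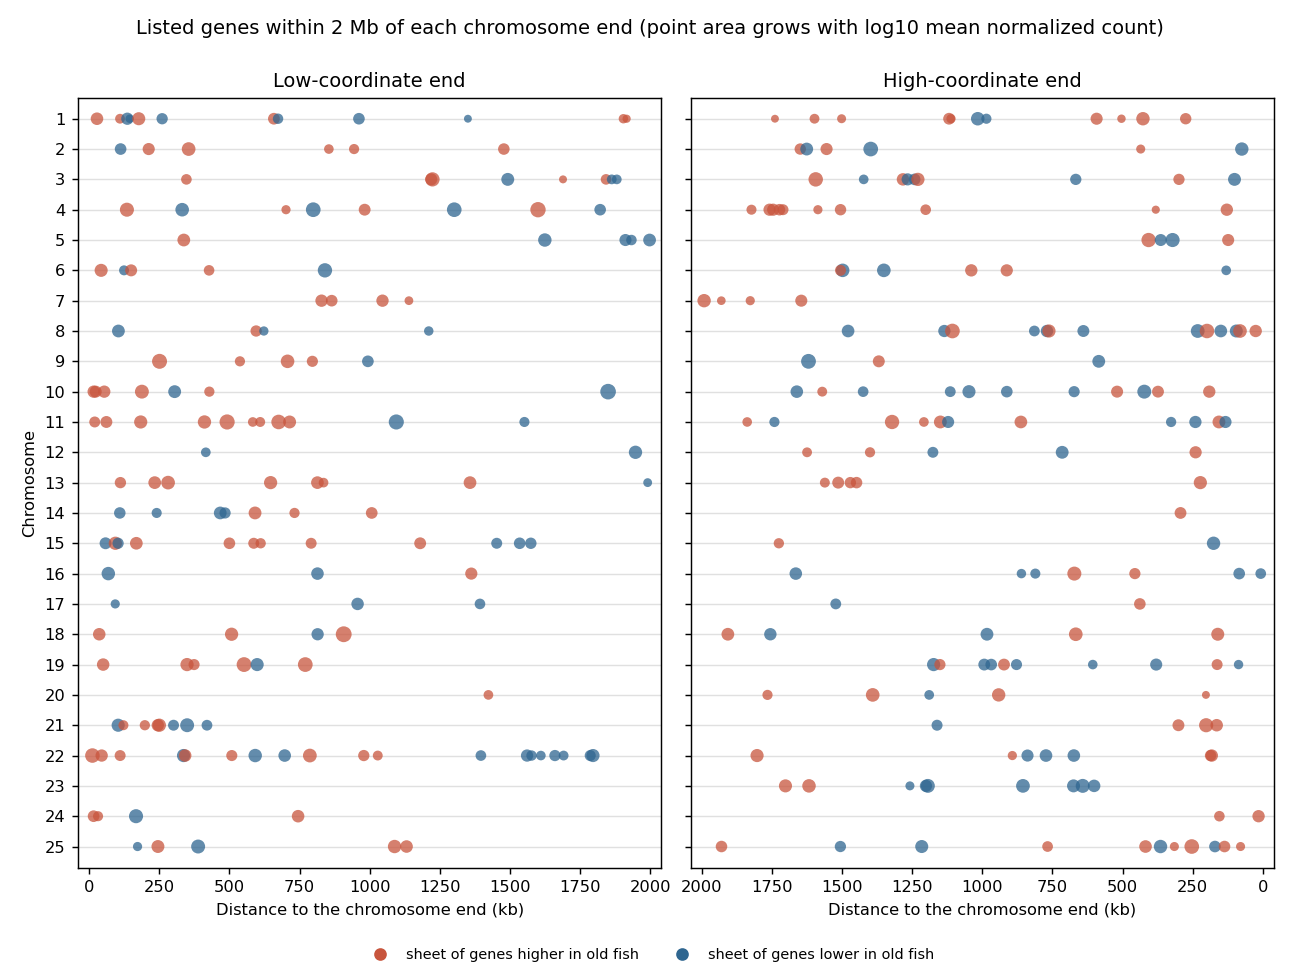
Position of the 320 listed genes, with one row per chromosome and the distance to the low-coordinate end (left panel) or high-coordinate end (right panel) in kb along the horizontal axis. Red points are genes in the authors' sheet of genes higher in old fish, blue points genes in the sheet of lower genes, and the area of a point grows with log10 of its mean normalized count; the high end of chromosome 4 holds 10 red points and no blue one, and the low end of chromosome 22 holds a cluster of 7 blue points between 1561 and 1796 kb.

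Of the 320 genes, 184 were listed as higher in old fish (57.5%; 47.8% of all 2885 listed genes) and 136 as lower (42.5%; 52.2% of all listed genes). Among the 2565 listed genes further than 2 Mb from both ends, 1196 (46.6%) were listed as higher. The share was 64.9% within 0.25 Mb of an end, 61.4% from 0.25 to 0.5 Mb, 55.1% from 0.5 to 1 Mb, 50% from 1 to 1.5 Mb and 55.6% from 1.5 to 2 Mb, against 44.4% from 2 to 5 Mb. It was 58.6% at the low-coordinate ends and 56.4% at the high-coordinate ends. Compared within chromosomes, the share of genes listed as higher was above that of the same chromosome's other listed genes on 18 of the 25 and below it on 7. These shares are descriptions with no test, since neighbouring genes are not independent of each other.

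Some of the genes had no assigned gene name. Of the 320 genes, 250 had a gene name and 70 (21.9%) only a clone-based or locus name, against 490 of 2885 (16.98%) in the whole list. The clone-based share was 12.99% within 0.25 Mb of an end, 13.6% from 0.25 to 0.5 Mb and 38.1% from 1.5 to 2 Mb, and it was 16.9% from 2 to 5 Mb, 23.95% from 5 to 10 Mb and 14.04% further in. Clone-based genes near the ends were listed as higher in 67.1% (59.4% of all listed clone-based genes), and genes with a gene name in 54.8% (45.5% of all listed genes with a gene name). In both kinds the share near the ends stood above that of the whole list. For 8 of the 70, the reference table gives a gene name for the same identifier: ncana, the proteoglycan neurocan of the brain matrix (528 normalized counts, 74.8 kb from an end of chromosome 2, lower), kcnj10 on the same chromosome (lower), rfx7, a transcription factor (976, chromosome 25, lower), gpr108 (543, chromosome 1, higher), cp110, a centriole protein (152, chromosome 11, lower), ankrd50 (62.9, chromosome 14, lower), adamts14, a procollagen protease (50.1, chromosome 12, lower), and cdh7b, a cadherin (25.4, chromosome 24, higher). A separate listed gene named ANKRD50 (274.5, lower) lies 13.9 kb from this ankrd50 entry, and how the 2 entries are related was not examined.

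**Figure D2:**
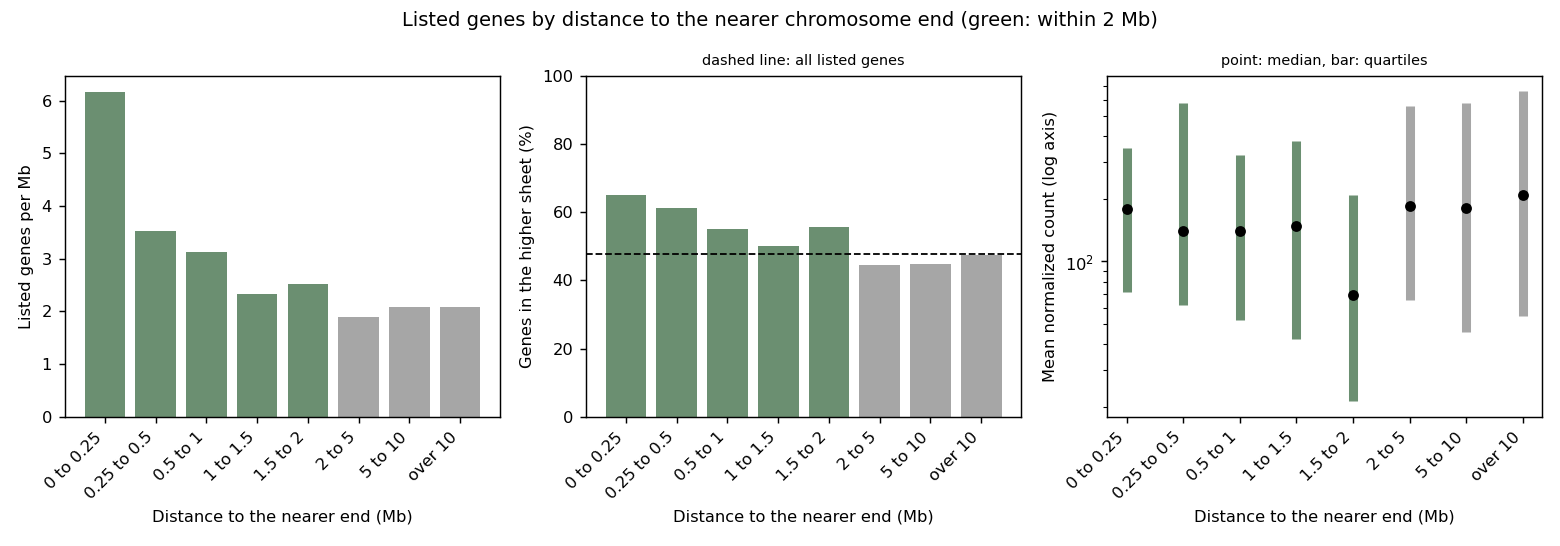
Listed genes by distance to the nearer chromosome end in Mb, green for bands within 2 Mb and grey for bands further in: listed genes per Mb (left), percent of them in the sheet of higher genes with a dashed line at the 47.8% of all listed genes (middle), and median mean normalized count on a log axis with a bar over the quartiles (right). The density falls from 6.16 per Mb in the outermost band to 1.89 per Mb from 2 to 5 Mb, and the percent listed as higher from 64.9 to 44.4.

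The mean normalized counts of the genes near the ends were lower than those of the list as a whole. Their median was 139 (quartiles 41.2 and 353), against 188 (quartiles 52.6 and 588) over all listed genes and 197 over those further in. Counts of at least 1000 were reached by 27 of the 320 (8.44%), against 15.2% of all listed genes, while counts of at least 50 were reached by 73.1% and 75.8%. Only pkma at 8896 and apc at 6686 exceeded 5000, against 41 genes in the whole list, and 10 of the 320 had a mean normalized count under 10. Genes with a gene name had a median of 173 and clone-based genes one of 53.8, and in the whole list these medians were 231 and 50.8. Genes listed as higher had a median of 134 and genes listed as lower one of 146. The median was 179 within 0.25 Mb of an end, 140 from 0.25 to 0.5 Mb and 141 from 0.5 to 1 Mb. It was 148 from 1 to 1.5 Mb and 69.0 from 1.5 to 2 Mb. Further in, the median was 184.5 from 2 to 5 Mb, 181 from 5 to 10 Mb and 209 beyond 10 Mb. The outermost band was thus close to the bands from 2 to 10 Mb, and the lowest median lay from 1.5 to 2 Mb. Across the 320 genes the rank correlation of distance with mean normalized count was -0.15, and across all 2885 listed genes it was 0.06 (Spearman, a description across genes, which are not independent replicates). The genes near the ends were also shorter, with a median span of 11 kb from start to end against 17.2 kb over all listed genes.

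**Figure D3:**
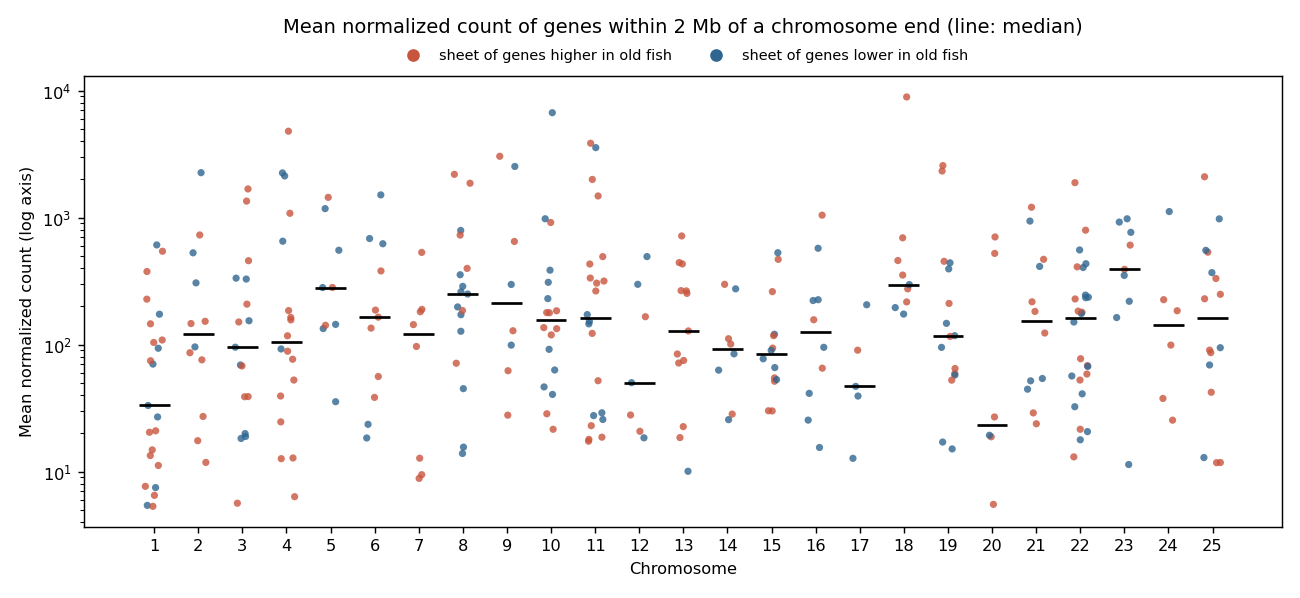
Mean normalized count, on a log axis, of each of the 320 genes within 2 Mb of an end, by chromosome; each point is one gene, red in the sheet of higher genes and blue in that of lower genes, and the black line is the chromosome's median. Medians run from 23.1 on chromosome 20 to 391 on chromosome 23, and the 2 genes above 5000 are apc on chromosome 10 and pkma on chromosome 18.

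Chromosome 1 had 23 genes near its ends, 15 listed as higher and 8 as lower, with a median mean normalized count of 33.1. Its low end opens with eed, a core subunit of the Polycomb complex that methylates histones, 27.7 kb from the end at 228 normalized counts and listed as higher. Next to it stand 3 genes of blood coagulation, f7l listed as higher at 20.4 normalized counts and f10 and prozb listed as lower at 173 and 7.48. Beyond them follow lamp1a, a lysosomal membrane protein (listed as higher, 376), and cenpe, a kinesin of the kinetochore (listed as lower, 70.2). Further in lie adamts1, a secreted metalloprotease (33.1), n6amt1, a methyltransferase (93.5), and donson, a replication fork protein (5.42), all listed as lower. At the high end, rdh8b, a retinol dehydrogenase (74.6, 275 kb from the end), was listed as higher. There slc27a1b, a fatty acid transporter, had the highest count of the chromosome's named genes at 608 and was listed as lower. It also held nlrp3 and nlrc10, of the NOD-like receptor family of cytosolic sensors, at mean normalized counts of 20.9 and 11.2 and both listed as higher.

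Chromosome 2 had 12 (8 listed as higher, 4 as lower; median 121). At the low end stood fggy, a carbohydrate kinase (95.8 normalized counts, listed as lower), dhx30, an RNA helicase (152, listed as higher), and sharpin, a subunit of the linear ubiquitin ligase of inflammatory signalling (729, listed as higher). The immune genes irf4a, a transcription factor of lymphocytes and macrophages, and c8b, of the complement attack complex, had mean normalized counts of 17.5 and 86.2, and fcer1gl, an Fc receptor gamma chain, had 146 at the high end; all 3 were listed as higher. The highest count belonged to a gene named only by its locus, which the reference table of names gives as kcnj10, a potassium channel of glia, at 2255 normalized counts and listed as lower.

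Of the 17 genes on chromosome 3 (9 listed as higher, 8 as lower; median 95.3), sox9b, a transcription factor of glial and cartilage precursors, lay 101 kb from the high end at 333 normalized counts, and sox10, of oligodendrocytes and neural crest, 1492 kb from the low end at 328, both listed as lower. The RNA helicase helz had the highest count (1679), followed by wbp2nl (1346), a WW domain binding protein gene; both were listed as higher. The MHC class I gene mhc1zaa, nearest the low end at 346 kb, had 38.8 normalized counts and was listed as higher.

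The ends of chromosome 4 differed from each other. All 10 genes of the high end were listed as higher, with mean normalized counts from 6.34 to 185 and a median of 64.6. Of the 8 genes of the low end, whose median was 865, 4 were listed as higher and 4 as lower. The high end held arfgap3, a regulator of vesicle traffic at the Golgi (185), the MHC class II gene mhc2d4b (88.6) and 2 genes of the MS4A membrane protein family, ms4a17a.11 (76.6) and ms4a17a.17 (12.6), beside 6 clone-based genes. At the low end stood tbk1, a kinase of innate immune signalling (1079.7, listed as higher), tulp4a (651, lower), dpysl5b, a neuronal cytoskeleton regulator of the collapsin response family (2245, lower), ptn, the growth factor pleiotrophin (2125, lower), and slc38a2, a glutamine and neutral amino acid transporter (4781, higher). Among the 88 listed genes of chromosome 4 further than 2 Mb from its ends, 57.95% were listed as higher, the highest such share of any chromosome. Without chromosome 4, 170 of 302 genes (56.3%) were listed as higher.

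Chromosome 5 had 9 (3 listed as higher, 6 as lower; median 281). Near its high end lay MTFP1, a mitochondrial fission protein (142 normalized counts, listed as higher), and oxt, the precursor of the oxytocin-like neuropeptide (1441, listed as higher), with spra, an enzyme of tetrahydrobiopterin synthesis (134, listed as lower), beside it. The small GTPase gene rab14l (1175) stands in the sheet of lower genes, but its direction columns have opposite signs, so that its direction is uncertain. On the low end, rnf170, a ubiquitin ligase of the endoplasmic reticulum (281, listed as higher), was followed by ppp1cc, a catalytic subunit of protein phosphatase 1 (552), and nupr1a, a stress response gene (281), both listed as lower.

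Chromosome 6 had 11 (6 and 5; median 164). bmerb1, 42.5 kb from the low end, had 379.7 normalized counts, and fdx2, a mitochondrial ferredoxin of iron-sulphur cluster assembly, had 135; both were listed as higher. zeb2b, a zinc finger transcription factor of neural crest and oligodendrocyte differentiation, had 1507 and was listed as lower. At the high end, aurka, a mitotic kinase (18.4), ddit3, the CHOP factor of the unfolded protein response (683), and igsf8, a membrane immunoglobulin protein (622), were listed as lower, and shmt2 of mitochondrial one-carbon metabolism (187), fam210b (164) and soat2, a cholesterol esterifying enzyme (56.0), as higher. igsf8 and soat2 overlap, so that reads could have been shared between them.

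Chromosome 7 had 8, all listed as higher (median 120), and the smallest share of its listed genes near its ends, 4.79%. None lay within 0.8 Mb of an end. epdl1, an ependymin-like secreted protein (181), stood at the low end, and tollip, an adaptor that dampens Toll-like receptor signalling (531), and muc5f, a mucin (8.83), at the high end.

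Chromosome 8 had 17 (6 listed as higher, 11 as lower; median 250), 13 of them at the high end. The 6 nearest the high end were tmcc1a (25.2 kb, 185 normalized counts, higher), trh, the precursor of thyrotropin releasing hormone (728, higher), creld1 (354, lower), brpf1, a subunit of a histone acetyltransferase complex (260.0, lower), prickle2a of planar cell polarity signalling (1862, higher), and magi1a, a scaffold of cell junctions (791, lower). gabrd, the delta subunit of the GABA-A receptor, had the chromosome's highest count, 2188, and was listed as higher, while cacna2d3a, an auxiliary calcium channel subunit (127), was listed as lower. On the low end stood sncaip, which encodes the alpha-synuclein interacting protein (287, lower), and the overlapping pair of mfsd14bb (71.3, higher) and spinb (13.9, lower).

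On chromosome 9 (8 genes, 5 and 3; median 213), pcbp2, an RNA binding protein (3035), and ndufb3, of respiratory complex I (648), were listed as higher, as was marco, a scavenger receptor of macrophages (62.2). septin10, a cytoskeletal GTPase (297), and gpm6bb, a proteolipid family membrane protein of neurons and glia (2524), were listed as lower.

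Chromosome 10 had 18 (9 and 9; median 157). Its low end opens with 3 genes spanning 41.3 kb that were all listed as higher, tiprl, a regulator of protein phosphatases (15.97 kb, 184), riox2, a ribosomal and histone oxygenase (133), and hlcs, the ligase that attaches biotin to carboxylases (178), with the transcription factor ets2 (914, higher) next. apc, the Wnt pathway inhibitor that marks beta-catenin for degradation, lay 1849.9 kb from the end with 6686 normalized counts and was listed as lower. The high end held pargl, a poly(ADP-ribose) glycohydrolase (178, higher), the histone variant h2az2b (978, lower), the histone methyltransferase kmt5aa (385, lower), the bicarbonate transporter slc4a5b (136, higher) and cetn3, a centrosome protein (229.9, lower).

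Chromosome 11 had 22 (15 listed as higher, 7 as lower; median 162), the largest share of a chromosome's listed genes near its ends at 20.8%. The transcription factor sp1 lay 19.7 kb from the low end (51.9, higher). Further in stood genes that were listed as higher, znf831 (492), cnbpb, a nucleic acid binding zinc finger protein (3844), the nuclear receptor pparg (23.0), synapsin syn2b of synaptic vesicles (1994), and timp4.3, a metalloprotease inhibitor (334). timp4.3 and syn2b overlap. The GABA transporter slc6a11b (3549.8) was listed as lower. At the high end, mafgb, a small Maf transcription factor (304), tbce, a tubulin chaperone (264), and clcn4, a chloride and proton exchanger (1478), were listed as higher, and tmc6b (172), the thymidine kinase tk1 (29.0) and the splicing factor srsf7b (145) as lower.

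Chromosome 12 had 7 (3 and 4; median 50.1). kcnma1b, a calcium-activated potassium channel (166), was listed as higher, and sox9a, the second sox9 copy (492), sec31b of transport vesicles (298) and hs3st3l of heparan sulphate synthesis (18.4) as lower. Chromosome 13 had 13, of which 12 were listed as higher (median 128), against 50.6% of its 83 listed genes further in. The exception was gfral, a receptor of the GDNF family (10.1). Its low end held dnaaf2, an assembly factor of ciliary dynein (71.5), cfap36, a cilia protein (264), mpc1, of the mitochondrial pyruvate carrier (716), tp53bp2a, which binds p53 (442), polh, a DNA polymerase that copies past damage (253), and ifngr1l, an interferon gamma receptor (266). The high end held lclat1 of cardiolipin metabolism (431) and, in 116 kb, vox and 3 clone-based neighbours, with mean normalized counts from 22.6 to 128.

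Chromosome 14 had 8 (4 and 4; median 92.7). gpc2, a glypican of developing neurons (84.4), and aurkb, a mitotic kinase (25.6), were listed as lower near the low end, while dele1, which signals mitochondrial stress (298), the Toll-like receptor tlr1 (28.4) and coagulation factor f8 (101) were listed as higher. The high end held only cox18, an assembly factor of cytochrome oxidase (111, higher). Chromosome 15 had 14 (8 and 6; median 83.6). The receptor kinase axl (120.5, lower), the beta-secretase bace1 that cleaves the amyloid precursor protein (468, higher), the apolipoprotein apoa1b (65.9, lower) and the actin regulator limk1a (261, higher) stood within 0.25 Mb of the low end. Further in, nudt8 of mitochondria (93.7) and lxn, a carboxypeptidase inhibitor (118), were listed as higher, and the condensin subunit smc4 (89.9) and its neighbour trim59 (77.2) as lower. At the high end h3f3b.1, a replication-independent histone H3 gene, had 528 normalized counts and was listed as lower.

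Chromosome 16 had 10 (3 listed as higher, 7 as lower; median 126) and the gene nearest to any end. iqgap3, a cytoskeletal scaffold of dividing cells, lay 7.29 kb from the high end, at positions 55208398 to 55259199 of chromosome 16 on GRCz11, with 41.3 normalized counts, and its neighbour eomesb, a T-box factor of neural progenitors, had 95.1; both were listed as lower. sox4b, a factor of neuronal differentiation (573), and gpatch3 (222) were also listed as lower, and dennd4b, a Rab activator (1044), as higher. Chromosome 17 had 5 (1 and 4; median 46.9), the fewest. cdin1 of red cell development in humans (90.2) was listed as higher, and arhgap11a (12.7), ppp2r5ca, a regulatory subunit of protein phosphatase 2A (206), zbtb42 (39.3) and erg28 of sterol synthesis (46.9) as lower.

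Chromosome 18 had 9 (6 and 3; median 296). pkma, a pyruvate kinase of glycolysis, had the highest mean normalized count of all 320 genes, 8896, 907 kb from the low end, and was listed as higher. gatm, of creatine synthesis (35.7 kb, 216), nedd4a, a ubiquitin ligase (458), and insyn1, an inhibitory synapse protein (692), were listed as higher, and mob2b (296) and yif1b of Golgi traffic (195) as lower. Chromosome 19 had 16 (8 and 8; median 117). Its low end held col14a1b, a fibril-associated collagen (211), mcl1a, an inhibitor of apoptosis (452), akap9, a scaffold of the centrosome and Golgi (2564), and gstr, a glutathione transferase (2324), all listed as higher, and cyp51, of cholesterol synthesis (394), listed as lower. At the high end sgo1, which protects centromeric cohesion (15.1), rrm2, of ribonucleotide reductase (57.5), and the syndecan sdc2 (439.8) were listed as lower, and scg5, a secretory granule chaperone (116), as higher. The gene named crybg2 in the files (52.4, higher) carries the symbol prdm1b for the same identifier in the reference table.

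Chromosome 20 had 6 (5 and 1; median 23.1). fkbp3, a peptidyl-prolyl isomerase (522), dio3b, which inactivates thyroid hormone (703), and themis, a T cell signalling protein (18.8), were listed as higher and the chaperone hsp90aa1.1 (19.3) as lower. Chromosome 21 had 12 (7 and 5; median 153). Within 435 kb of the low end stood 8 neighbours, 4 in each sheet, among them jak2a of cytokine signalling (469, higher), the sterol carrier stard4 (182, higher), gsdf of the TGF-beta family (29.0, higher), zer1, a ubiquitin ligase adaptor (412, lower), and the transcription factors ZNF462 (938) and klf4 (44.5), both lower. At the high end macroh2a1, a histone variant (217), ddx46, an RNA helicase of splicing (1205), and irf1b, an interferon regulatory factor (123), were listed as higher.

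Chromosome 22 had 26, the most of any chromosome (12 listed as higher, 14 as lower; median 163). sdhb, the iron-sulphur subunit of succinate dehydrogenase, lay 11.4 kb from the low end, at positions 11395 to 18224 of chromosome 22 on GRCz11, at 1881 normalized counts, followed by tmem88b, a Wnt pathway inhibitor (179), and prkar2ab, a regulatory subunit of protein kinase A (52.5); all 3 were listed as higher. Next came btg2, an antiproliferative gene (433, lower), necap2 of clathrin coats (228, higher), tmcc2 (555, lower), gpr37l1a, a glial receptor (234, lower), and cry3b, a cryptochrome (794, higher). A run of 7 neighbouring listed genes over 240 kb stood in the sheet of lower genes. It held 4 zinc finger genes, znf1183 (17.8), znf1160 (20.6), znf1154 (56.5) and znf1179 (404), and 3 clone-based genes from 32.4 to 176. Zinc finger genes of such clusters are near copies of each other, and their counts may be split or shared. At the high end the overlapping pair of sirt7, a nuclear deacetylase of the sirtuin family (77.3), and rbbp9 (183) was listed as higher, and mark1, a microtubule affinity kinase (245), ptk7a, a Wnt co-receptor (236), and rcor3, a corepressor (150.4), as lower.

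Chromosome 23 had 9, all at its high end and none within 0.6 Mb of it (2 listed as higher, 7 as lower; median 391). Among them was ctc1, of the CST complex that completes telomere replication, at positions 44970214 to 45022681 on GRCz11, 1201 kb from the end, with 163 normalized counts and listed as lower. It was the only one of the 320 genes placed in the class of telomere maintenance. Its neighbours were tfr2, a transferrin receptor (11.4), and hmgb2b, a chromatin protein of dividing cells (920.5), both listed as lower, as were egr4, an immediate early transcription factor (977), dclk2b, a doublecortin-like kinase (219), and psip1b, a chromatin-binding coactivator (764). pfn1, the actin-binding profilin (607), was listed as higher. Of the 88 listed genes of chromosome 23 further than 2 Mb from its ends, 48.9% were listed as higher.

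Chromosome 24 had 6 (5 and 1; median 142) and chromosome 25 had 16 (10 and 6; median 162). On chromosome 24, serpinb1l3, a serine protease inhibitor (15.0 kb from the high end, 184), top1mt, the mitochondrial topoisomerase (37.6), cdh19, a cadherin of glia (15.6 kb from the low end, 99.0), and stk17a, a kinase linked to apoptosis (226), were listed as higher and lancl2 (1114) as lower. On chromosome 25, vwa5a (331), spg11, a lysosomal protein of neurons (534), and ciao2a, of iron-sulphur protein assembly (229), were listed as higher at the low end. The high end held 7 neighbours within 350 kb, with cd44b, a hyaluronan receptor (11.8), pamr1b (90.3), glg1a, a Golgi glycoprotein (2093), tdrd12, of germline RNA silencing (11.8), and hprt1l of purine salvage (249) listed as higher and ldlrad3 (94.4) and dbndd1 (552) as lower. The amino acid transporter slc7a10b (368) and sall1b (69.0) were listed as lower, and spi1a, a transcription factor of myeloid cells (86.3), as higher.

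Grouped by function, the genes near the ends fell into 19 classes, which were assigned from the symbols and descriptions of the genes. Genes of the immune and inflammation class stood in 1 sheet throughout, with 18 of 18 listed as higher. Their median mean normalized count was 60.6, from nlrc10 at 11.2 to tbk1 at 1079.7. This holds for the class as drawn, since genes with immune roles that were placed in other classes stood in both sheets. Among those, irf4a (17.5), irf1b (123), jak2a (469) and the myeloid factor spi1a were listed as higher, and axl (120.5) and adgre5b.2 (26.9) as lower. These are examples and not a full count of such genes. Of the fixed microglial markers 2 of 3 were listed, mpeg1.1 at 243 and csf1ra at 239 normalized counts, both as higher, and both blood markers, hbaa2 at 34.5 and hbba2 at 75.6, were listed as higher as well; their part in the immune genes' direction was not tested. In the class of mitochondria and energy 10 of 11 were listed as higher (median 142), the exception being mrpl42, of the mitochondrial ribosome (92.3), and in RNA processing and translation 8 of 10 (median 187). The mitochondrial count too holds for the class as drawn, since shmt2, of mitochondrial one-carbon metabolism, was placed in lipid and other metabolism. Over all 320 genes the share listed as higher was 57.5%, and over all 2885 listed genes it was 47.8%.

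In the other direction, cell cycle, replication and repair had 11 of 13 genes listed as lower (median 54.02). They were cenpe, donson, aurka, aurkb, cdk2ap1, smc4, kif4, rrm2, sgo1, tk1 and btg2, with mean normalized counts from 5.42 for donson to 433 for btg2. Of these, btg2 is an antiproliferative gene, so that the genes listed as lower do not all act in the same direction on division. The genes polh, a DNA polymerase that copies past damage, and pargl, a poly(ADP-ribose) glycohydrolase, were listed as higher. Both radial glial markers that were listed, fabp7a and gfap, and all 4 oligodendrocyte markers stood in the sheet of lower genes, and their part in this was not tested. Chromatin, histones and DNA methylation had 10 of 14 listed as lower (median 222), with eed, riox2, macroh2a1 and sirt7 as the ones listed as higher. Transcription factors and zinc finger proteins had 21 of 32 listed as lower (median 95.2), among them all 4 sox genes near the ends, sox4b, sox9a, sox9b and sox10, at mean normalized counts from 328 to 573. Kinases, phosphatases and G protein signalling had 13 of 20 listed as lower (median 156). Of all 320 genes 136 were listed as lower, and of all 2885 listed genes 52.2% were.

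The other classes stood nearer to the 57.5% of all 320 genes. Protein folding, ubiquitin and proteolysis had 7 of 10 listed as higher (median 233), membrane traffic and secretion 8 of 12 (median 263), lipid and other metabolism 15 of 24 (median 126), and growth factor, Wnt, BMP, Notch and hormone signalling 7 of 11 (median 703). Ion channels, receptors and synapse had 5 of 9 listed as higher (median 692), with gabrd, syn2b and clcn4 among the higher genes and magi1a, sncaip and cacna2d3a among the lower. Solute carriers and other transport had 3 of 7 (median 368), cell adhesion, extracellular matrix and guidance 7 of 15 (median 99.0), cytoskeleton, motors and cilia 5 of 8 (median 264), apoptosis and stress 3 of 5 (median 442), and 17 of 30 other named genes were listed as higher (median 174). The 4 coagulation genes f7l, f10, prozb and f8 were split, 2 in each sheet. Genes further than 2 Mb from the ends were given no class, so that none of these counts tells whether a class behaved differently near the ends than elsewhere.

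**Figure D4:**
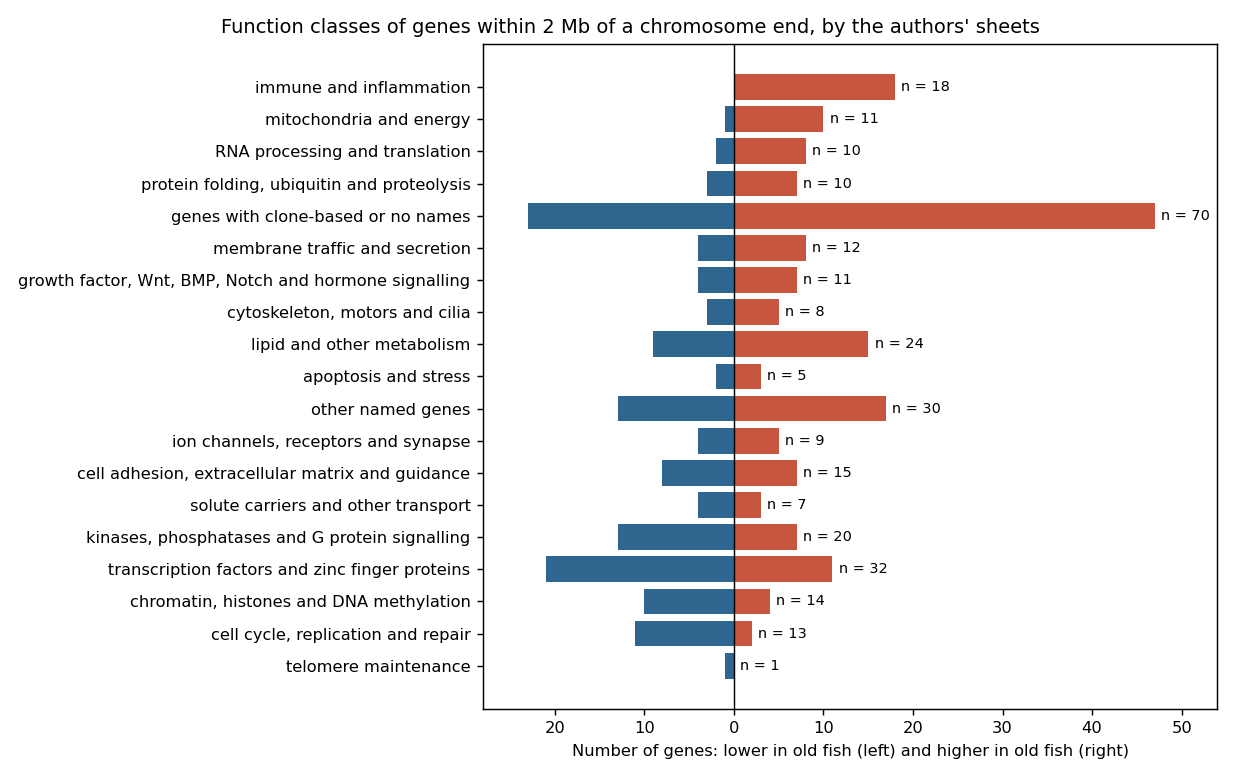
Number of the 320 genes near chromosome ends in each of 19 function classes, listed as lower in old fish (blue, left of 0) or as higher (red, right of 0), with the size of the class beside each bar and classes ordered by their share of higher genes. All 18 genes of the immune and inflammation class lie to the right. To the left lie 11 of 13 cell cycle genes, 21 of 32 transcription factors and the single telomere maintenance gene, ctc1.

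Neighbouring genes near the ends shared a sheet about as often as neighbours in the list as a whole. Of 271 pairs of listed genes next to each other, 153 (56.5%) stood in the same sheet, against 54.6% of 2860 such pairs over whole chromosomes, and among pairs at most 100 kb apart 82 of 134 (61.2%) did, against 57.7%. Of the 43 ends with at least 3 genes, 5 had all of them in a single sheet: the high ends of chromosomes 4 (10 genes) and 13 (5 genes) and both ends of chromosome 7 (4 genes each) with genes listed as higher, and the low end of chromosome 17 (3 genes) with genes listed as lower. These ends were not set against stretches of the same size further in. Overlapping genes, of which there were 4 pairs (igsf8 with soat2, mfsd14bb with spinb, syn2b with timp4.3, and sirt7 with rbbp9), and tandem copies such as the ms4a17a and zinc finger genes could have shared reads, which the table does not show, and whether counting used the strand of the directional libraries is not given in the sources used here.

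The 2 Mb limit itself separated genes that were much alike in position. Just inside it lay nupr1a at 1997765 bp (281 normalized counts, lower), tollip at 1991803 bp (531, higher) and gfral at 1990970 bp (10.1, lower). Just outside lay evx2 at 2002701 bp (58.7, lower), vkorc1l1 at 2002804 bp (119, lower) and cltcl1 at 2017428 bp (195, higher).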

How the data were processed

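Poly(A) RNA of whole zebrafish brains was sequenced from directional libraries, and the data analysed here are one comparison of WT brains over 30 months old with WT brains at 2 months. The submitters' processing notes name cutadapt 3.0, STAR, HTSeq, MultiQC 1.9 and the GRCz11 assembly, and the authors' methods name featureCounts and, to compare the ages, DESeq2. As deposited, the signal of a gene is its count normalized and averaged by the authors over their libraries (a pooled value with no SD and no n), in 3 sheets that hold all listed, higher and lower genes. The columns of the authors' own comparison (log2 fold change, its standard error, Wald statistic, p-value and adjusted p-value) were not used beyond a check of the direction of each gene. Signs differed for 1 gene, rab14l. The paper gives a minimum of uniquely mapped reads for all samples and an average coverage. Depth of each single library is not given in the sources used here, so that the counting error of a value is unknown.

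The 2887 entries hold 2885 distinct identifiers, and the distances recomputed from start, end and chromosome length equalled those deposited. Gene names came from the file, and 297 of the 320 identifiers had a symbol in the reference table. Members and lists were chosen with earlier results of these data known. Function classes were assigned from symbols and descriptions before counts or sheets were joined. Genes are named if they are the nearest named gene to an end, have the highest count of a chromosome, lie within 250 kb of an end, are among the 6 highest counts of a class or lie beside the 2 Mb limit; others were named after their values were seen. Some items are not reported here. No test was made. Distance limits, midpoint distances, count minimums, named genes only and leaving out each chromosome were tried as alternatives. Python 3.11.15, numpy 2.4.6, pandas 2.3.3, scipy 1.17.1 and matplotlib 3.10.9 were used.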

Additional observations from a re-analysis of the deposited data

How the results depend on the processing

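The number of genes, 320 at 2 Mb, was 199 at a limit of 1 Mb, 604 at 5 Mb and 123 where the mean normalized count had to reach 200. The percent listed as higher in old fish was 57.5 and was 51.3 at 5 Mb. The median mean normalized count was 139 and was 173 with gene names only. Both alternatives lay just outside 95% intervals over genes, 51.9 to 63.0 for the percent and 101 to 172 for the median. These intervals treat genes as independent, which they are not, and serve only as a yardstick. The 604 genes at 5 Mb also include all 320, and the genes with gene names are a part of the 320. The intervals therefore cannot tell whether these overlapping sets differ. The number was 250 with gene names only and 234 where the count had to reach 50, both within 1.5 times of 320, and the median was 166 at 1 Mb and 153 at 5 Mb. The percent listed as higher was 60.3 at 1 Mb and 57.7 without rab14l, an alternative chosen after seeing the data. The number of listed genes per Mb, 3.2 at 2 Mb, was 3.98 at 1 Mb and 2.42 at 5 Mb, against 2.145 over whole chromosomes. Leaving out one chromosome at a time gave 294 to 315 genes, medians from 128 to 147, 56.0% to 58.8% listed as higher and 3.06 to 3.28 listed genes per Mb. Counts per kb of transcript length and listed genes as a percent of annotated genes, over all genes and over protein-coding genes, were not run, since the reference tables used here are of another assembly. No paired analysis was possible because the values are not given per sample. Without values per library, neither the spread between fish nor the weight of 1 library in a listed gene could be computed.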
